A study of Mus musculus with 25 samples.

Results

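The response of cEND cells to 10 µM WZB117 was examined gene by gene within passage. cEND is an immortalised endothelial line from mouse brain, and WZB117 is a small-molecule inhibitor of Glut1, the facilitative glucose transporter encoded by Slc2a1. Cells received vehicle (DMSO) or WZB117 at 0.5 or 10 µM, each treatment being sequenced once at passages 12, 14 and 18 of the same line. The 3 libraries at 10 µM were compared with the 3 DMSO libraries, the passage pairing them, and these 6 libraries are part of 9 cEND libraries among 25 in the whole study. The submitters state that the experiment asked whether lower Notch signalling could accompany reduced glucose transport and glycolysis in brain endothelium. Replication is thus across passages of a single line, with no animals behind it. The labels name no genetic change in the cells, and the length of treatment is not given in the sources used here.

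As general background, Glut1 carries glucose into the endothelium of the blood-brain barrier, where glycolysis supplies much of the cell's ATP. Cells short of sugar also run low on precursors for protein glycosylation in the endoplasmic reticulum, on NADPH and on amino acids. Known stress programmes answer each of these, the unfolded protein response (UPR) through Ire1, Perk and Atf6, the antioxidant response through Nrf2, and the integrated stress response through Atf4. Growth programmes such as ribosome production and cell division are commonly turned down in starved cells.

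In the model of all 9 libraries with passage as a block, 2864 of 15466 tested genes (18.5%) differed between 10 µM WZB117 and DMSO, 1427 higher (9.23%) and 1437 lower (9.29%). Of these, 2818 (18.2%) also had the same sign of the log2 difference in passages 12, 14 and 18, and they are the genes said to have moved in all 3 passages. Of the latter, 1406 rose (9.09% of the genes tested) and 1412 fell (9.13%). Curated lists of hypoxia targets and of replication histones accounted for few of them. There were 50 hypoxia targets among the genes that rose, and 58 histones and 1 hypoxia target (Apln) among those that fell. Outside both lists, 1356 genes rose and 1353 fell. Passing the test here means an adjusted p below 0.05 from edgeR's quasi-likelihood test. Benjamini-Hochberg adjustment was over all genes tested, and every adjusted p below is from this test. It is a single test over the 3 passages together. No test was run within a passage, and the sign rule sets no minimum size.

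The pairing by passage carried much of this count. Without the passage term 197 genes passed, 132 higher and 65 lower, of which 194 were among the 2864. The other calls were made only with the passage term in the model. The genes named with values here or in the closing observations that passed also without the passage term were Abhd18, Alkbh5, Apold1, Bhlhe40, Cdkn1a, Cdkn1b, Dnajb9, Eno2, Epm2a, Foxo3, Gbe1, Gclm, Hilpda, Hk1, Hmox1, Hspa5, Kdm4b, Lfng, Mthfd1l, Mturn, Numbl, Pdk1, Pgd, Pgm1, Plod2, Ppargc1b, Ppp1r15a, Ppp1r3b, Psrc1, Rora, Slc2a1, Smtnl2, Sqstm1, Srxn1, Syvn1, Unc13a, Vegfa and Xbp1. The other genes named with values did not. Leaving out both libraries and the 0.5 µM library of passage 12 left 1628 calls, leaving out only DMSO of passage 12 left 1731, DMSO of passage 18 left 1836 and 10 µM WZB117 of passage 12 left 1870. The p-values rest on how much the treatment differences varied between these passages of the same line, once the level of each passage was fitted.

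Most of the changes were modest. Among the genes that rose in all 3 passages outside the hypoxia and histone lists, the median log2 fold change was 0.35, with quartiles of 0.26 and 0.52, and 165 of the 1406 genes exceeded 1.5-fold in each passage, 127 of them outside both lists. A 2-fold rise in each passage was met by 62 genes, 38 of them outside the lists. Of the 1412 genes that fell, 146 exceeded 1.5-fold in each passage (94 outside the lists) and 65 exceeded 2-fold, of which 35 were histones and 30 lay outside both lists. Rises were larger in the earliest passage: the median log2 difference of the genes that rose was 0.46 at passage 12, 0.31 at passage 14 and 0.33 at passage 18. Of these genes, 945 of 1406 had their largest rise at passage 12. DMSO of passage 12 was the shallowest library, and its part in this was not tested. The genes that fell had medians of -0.39, -0.29 and -0.43 in the same order, and 634 of the 1412 fell most at passage 18. The CPM ranges of the groups did not overlap for 850 of the genes that rose and 607 of those that fell, against 2406 (15.6%) of all genes tested. Nearly all were protein-coding, 1374 of the genes that rose and 1305 of those that fell, against 12573 of the genes tested.

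**Figure D1:**
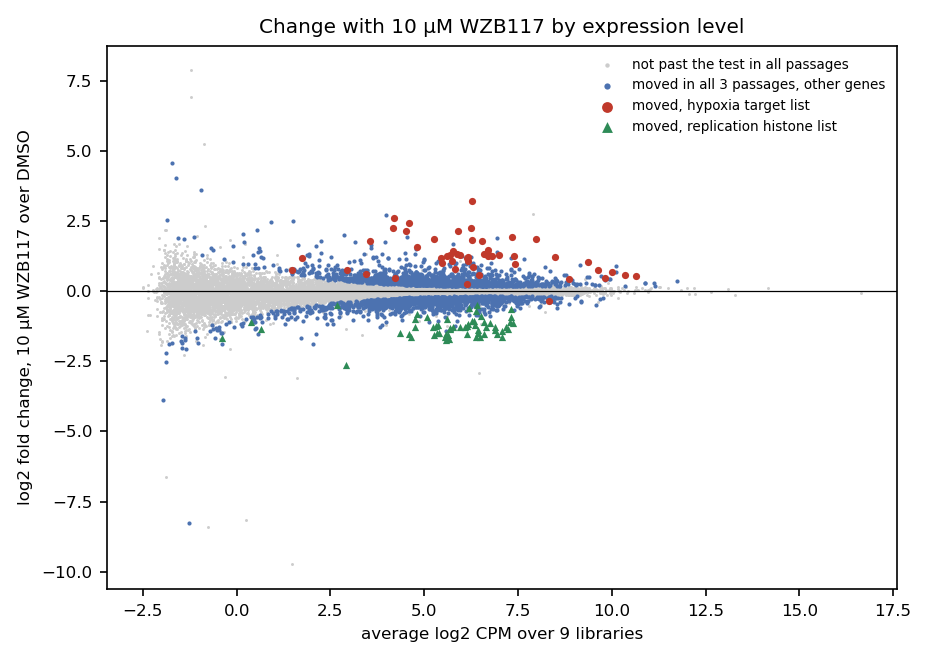
Log2 fold change at 10 µM WZB117 over DMSO (vertical axis) against average log2 CPM over the 9 libraries (horizontal axis) for the 15466 genes tested. Coloured points passed the test and had the same sign of the difference in all 3 passages, and grey points did not meet both conditions. Red points are the 51 hypoxia targets and green triangles the 58 replication histones among the coloured points, and blue points are the others. Most blue points lie within 1 log2 unit of 0.

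The libraries held 27.3 to 40.0 M estimated counts with DMSO and 34.6 to 40.0 M at 10 µM. Endothelial identity was plain in both groups: the 28 pan-endothelial markers summed to 9468 to 12481 CPM (counts per 1e6 counts) with DMSO and to 9631 to 12880 CPM at 10 µM, while the 10 epithelial markers summed to at most 0.388 and 0.435 CPM. Fibroblast markers, mostly Pdgfra (30.5 to 99.4 CPM over the 9 libraries), summed to 33.0 to 78.8 CPM with DMSO and 32.4 to 103 CPM at 10 µM. Microglial markers, mostly Cd68 (8.82 to 20.0 CPM over the 9 libraries), summed to 12.1 to 16.7 CPM and 15.2 to 21.6 CPM in the same order. Tyrobp and P2ry12 of that list were at 0 in all 9. Neuronal and astrocyte markers summed to 1.80 to 2.76 CPM with DMSO and 2.42 to 4.55 CPM at 10 µM. The pericyte list, mostly the endothelial gene Mcam, summed to 652 to 1268 CPM and 603 to 1227 CPM. The endothelial marker Vwf was close to absent (0.184 FPKM with DMSO, against 204 FPKM for Pecam1). The use of strand in counting is not given in the sources used here, so counts of genes whose exons overlap those of another gene are uncertain, which among the genes named with values below holds for Abhd18, Arhgap20, Bhlhe40, Ccnd1, Cdc20, Cdkn1a, Cebpb, Dll4, Dnajb9, Dusp1, Gart, Gclm, Hk1, Jmjd6, Mthfd1, Mturn, Nop56, Notch1, Nrarp, Numbl, Pfas, Pgm1, Plk1, Plod2, Ppat, Ppp1r15a, Prr5l, Ramp3, Rora, Rrp1b, Slc2a1, Sqstm1, Syvn1, Txnip, Unc13a and Vcam1.

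Outside the hypoxia and histone lists, the 15 genes with the largest rise in the passage where they rose least were Eno2, Smtnl2, Unc13a, Cdkn1a, Abhd18, Apold1, Hilpda, Ppp1r3b, Mxd1, Inhbb, Dnajb9, Mturn, Arrdc3, Nr4a1 and Ramp3. Eno2, the enolase isoform best known from neurons (ENSMUSG00000004267, chr6:124760053-124769673, minus strand), stood at 5.71, 5.48 and 5.17 CPM with DMSO and 43.5, 37.0 and 28.4 CPM at 10 µM in passages 12, 14 and 18, the order used throughout. It was about level across the DMSO libraries and higher in each library at 10 µM, with a log2 fold change of 2.71 ± 0.11 (SE, adjusted p = 1.39e-15). Per exon length its mean level rose from 1.16 to 7.71 FPKM. Cdkn1a, which encodes the cyclin-dependent kinase inhibitor p21 (ENSMUSG00000023067, chr17:29090976-29100727, plus strand), was at 10.4, 11.1 and 13.7 CPM with DMSO and 55.4, 34.9 and 43.9 CPM at 10 µM, without overlap between the groups, a log2 change of 1.92 ± 0.20 (SE, adjusted p = 0.00158). Eno2 and Hilpda are also known hypoxia-inducible genes that the hypoxia list does not hold, so the genes outside that list are not free of such targets.

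Metabolic and signalling genes stood side by side in this group. Hilpda, a lipid droplet protein that restrains triglyceride breakdown, was at 7.47, 6.25 and 6.04 CPM with DMSO and 29.6, 18.7 and 15.8 CPM at 10 µM. Ppp1r3b, which brings protein phosphatase 1 to glycogen, was at 6.81, 9.98 and 8.61 CPM with DMSO and 29.6, 34.6 and 22.6 CPM at 10 µM. Both had higher values in every library at 10 µM than in any with DMSO, with log2 changes of 1.67 ± 0.12 (SE, adjusted p = 1.16e-09) and 1.77 ± 0.12 (SE, adjusted p = 5.12e-09). Mxd1, a partner of Max that represses Myc targets, rose by 1.56 and Inhbb, the beta B subunit of activins and inhibins, by 1.70 on the log2 scale. Apold1, an early response gene of endothelial cells, was at 43.9, 60.1 and 88.7 CPM with DMSO and 226, 163 and 327 CPM at 10 µM, again without overlap although both groups spread widely, a log2 change of 1.91 ± 0.22 (SE, adjusted p = 0.00712). Ramp3, a co-receptor that lets the calcitonin receptor-like receptor bind adrenomedullin, was at 9.10, 13.5 and 27.5 CPM with DMSO and 38.0, 29.8 and 69.3 CPM at 10 µM (adjusted p = 0.00149). Arrdc3, an alpha-arrestin, rose by 1.39, and the synaptic priming factor Unc13a by 2.00. The remaining 3, Smtnl2, Abhd18 and Mturn, rose by 2.52, 1.74 and 1.63. Apold1 no longer passed without passage 18 (adjusted p = 0.144) or without DMSO of passage 18 (adjusted p = 0.0532), with a span of 2.67e-16 to 0.144 over all alternatives.

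The 15 genes with the largest fall in the passage where they fell least were Gprin3, Ppargc1b, Pif1, Dapk2, Psrc1, Sgk2, Prr5l, Ankle1, Sapcd2, Cd300lb, Plk1, Gcnt1, Tmem204, Arhgap20 and Cenpf. Gprin3 (ENSMUSG00000045441, chr6:59347226-59426294, minus strand) was at 7.05, 2.76 and 5.55 CPM with DMSO and 2.10, 0.754 and 1.34 CPM at 10 µM, the lowest DMSO library still lying above all libraries at 10 µM, a log2 change of -1.87 ± 0.18 (SE, adjusted p = 3.19e-08). Ppargc1b, a coactivator of mitochondrial and lipid genes, was at 5.68, 6.19 and 5.29 CPM with DMSO and 1.67, 2.76 and 1.64 CPM at 10 µM, a log2 change of -1.52 ± 0.18 (SE, adjusted p = 5.73e-07). Their levels were low, which leaves few reads behind each value. Several were cell division genes. The helicase Pif1 fell by 1.26, the spindle microtubule protein Psrc1 by 1.17, the spindle orientation protein Sapcd2 by 0.93, the mitotic kinase Plk1 by 0.91 and the kinetochore protein Cenpf by 0.86 on the log2 scale. Plk1 was at 55.9, 68.3 and 44.7 CPM with DMSO and 29.0, 36.2 and 24.7 CPM at 10 µM, and its groups did not overlap (adjusted p = 1.68e-08). The others had other roles. Prr5l, which binds the kinase complex mTORC2, was at 22.5, 18.1 and 34.6 CPM with DMSO and 11.1, 9.63 and 15.4 CPM at 10 µM, highest at passage 18 under both treatments and without overlap (log2 change -1.03 ± 0.09 SE, adjusted p = 3.65e-09). Tmem204, a claudin-like membrane protein of endothelial cells, changed by -1.08 with overlap between the groups, Gcnt1, an enzyme that branches O-linked glycans, by -1.01, and Arhgap20 by -1.65. Dapk2, Sgk2, Ankle1 and Cd300lb changed by -1.18, -1.05, -1.19 and -1.15. Ankle1 no longer passed without passage 18 (adjusted p = 0.172) or without 10 µM of passage 18 (adjusted p = 0.0562), with a span of 1.97e-26 to 0.172 over all alternatives.

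**Figure D2:**
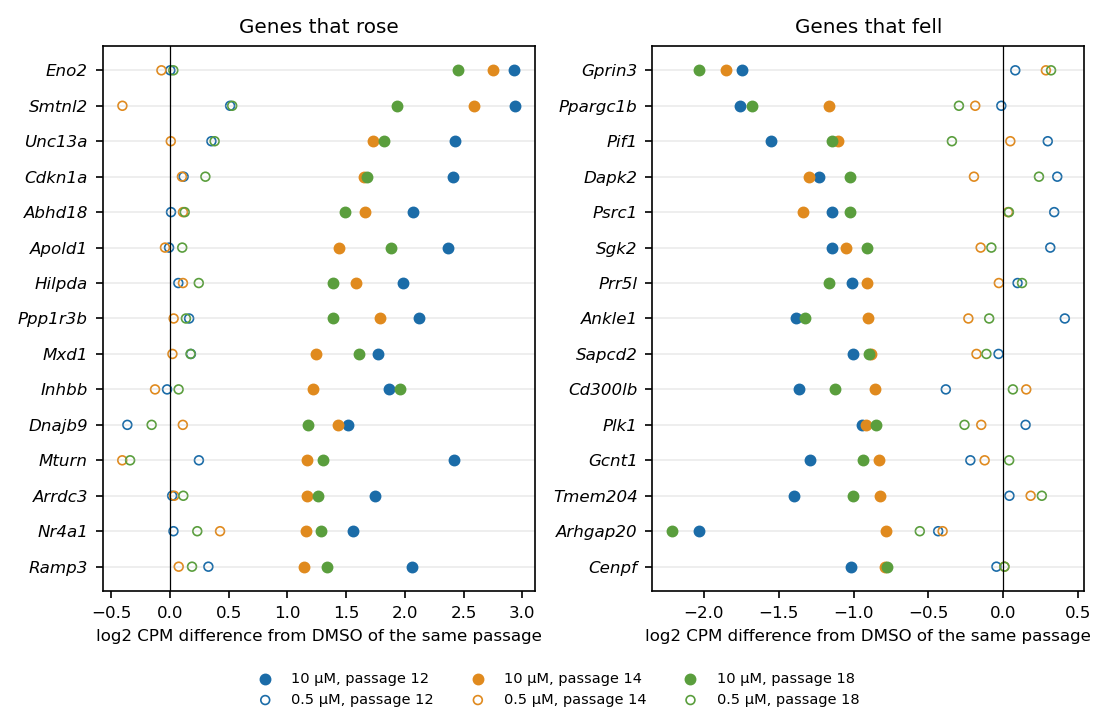
Log2 CPM difference from DMSO of the same passage for the 15 genes with the largest rise (left) and fall (right) in the passage where they moved least. Filled points are 10 µM and open points 0.5 µM WZB117, coloured by passage. All filled points lie on one side of 0, which the choice of genes requires, and each open point lies closer to 0 than the filled point of its passage.

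To see which functions the 2818 genes held, members of curated lists were counted and set beside the shares over all genes tested (9.23% higher and 9.29% lower, median log2 change -0.02). The lists share members (Cdkn1a is in the p53, cell cycle inhibitor and Notch target lists, for example), so their counts are not separate results.

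**Figure D3:**
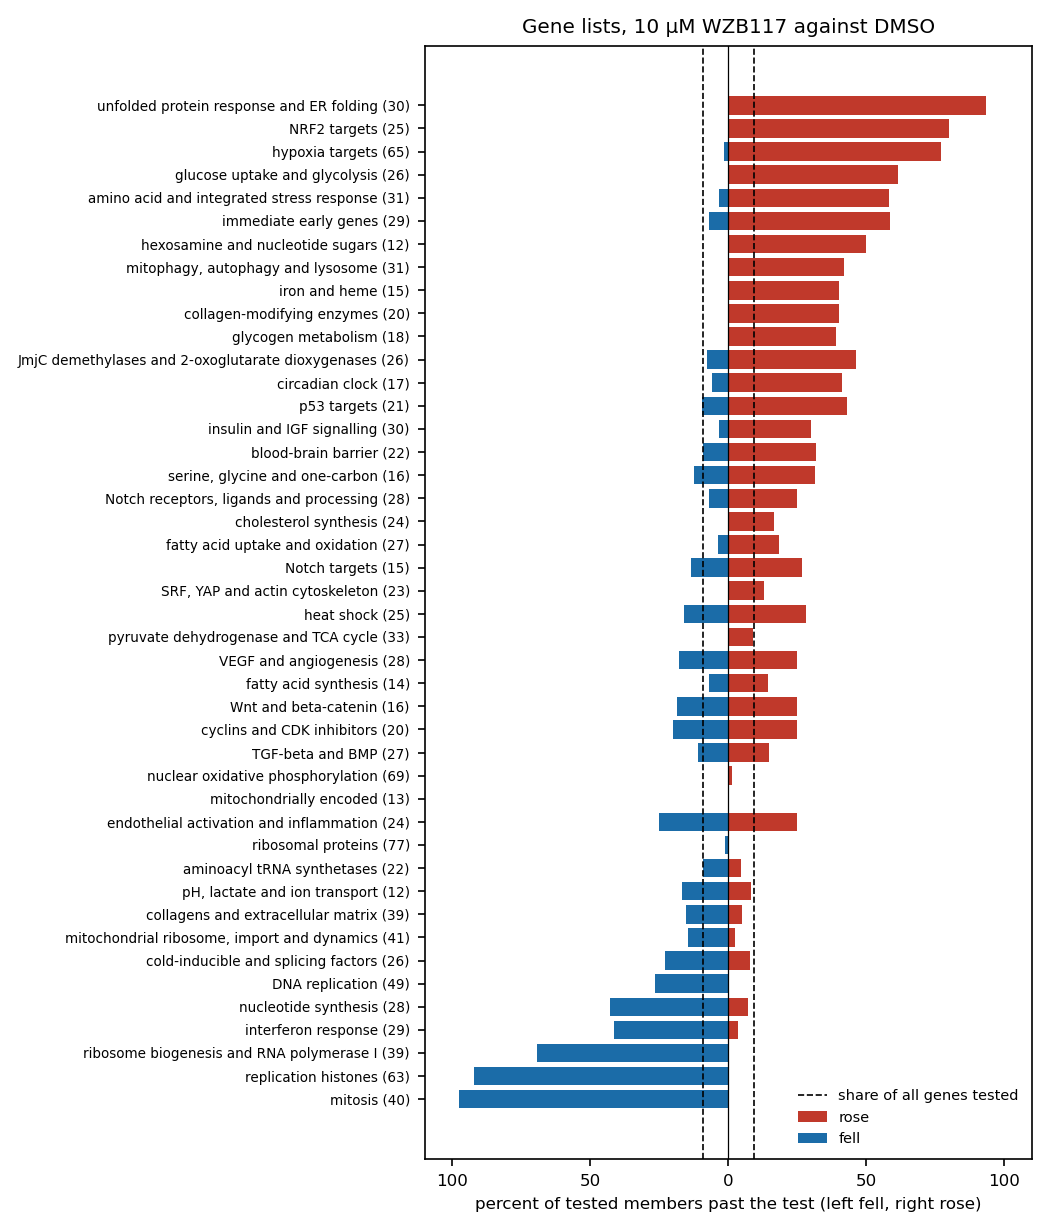
Percent of each list's tested members (number in brackets) that passed the test higher (red, to the right) or lower (blue, to the left) at 10 µM WZB117 than with DMSO, with dashed lines at the shares over all genes tested (9.23% and 9.29%). Lists of ER folding, Nrf2, hypoxia and stress genes extend to the right, and mitosis, histones and ribosome biogenesis to the left.

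Genes of protein folding in the endoplasmic reticulum rose almost as a whole list. Of 30 tested members of the unfolded protein response and ER folding list, 28 rose, with a median log2 change of 0.54 and medians of 0.58, 0.51 and 0.45 at passages 12, 14 and 18. Canx and Derl2 did not pass. The list held 16 calls without the passage term and 27 to 29 in every other alternative. Hspa5, the ER chaperone BiP (ENSMUSG00000026864, chr2:34771970-34777547, plus strand), was at 938, 849 and 937 CPM with DMSO and 1529.9, 1457 and 1453 CPM at 10 µM, one tight group above another, a log2 change of 0.71 ± 0.06 (SE, adjusted p = 3.53e-09). Its co-chaperone Dnajb9 was at 15.2, 12.6 and 17.2 CPM with DMSO and 43.5, 34.1 and 38.9 CPM at 10 µM (log2 change 1.38 ± 0.10 SE, adjusted p = 2.18e-09). Genes of the sensors Ire1 (Ern1), Perk (Eif2ak3) and Atf6 were among those that rose. The ubiquitin ligase Syvn1 of ER-associated degradation changed by 0.88 and the transcription factor Xbp1, which Ire1 activates by splicing, by 0.66. In the 26 members with a promoter window (250 bases before to 50 after a RefSeq start, assembly GRCm38.p6), the ER stress element (CCAAT followed after 9 free bases by CCACG, searched on both strands) occurred in 34.6%. Of all 27025 genes with a window, 0.137% held it. The window of Hspa5 (chr2:34771840-34772139, plus strand) is shown because it holds this element once, in capitals:
Hspa5: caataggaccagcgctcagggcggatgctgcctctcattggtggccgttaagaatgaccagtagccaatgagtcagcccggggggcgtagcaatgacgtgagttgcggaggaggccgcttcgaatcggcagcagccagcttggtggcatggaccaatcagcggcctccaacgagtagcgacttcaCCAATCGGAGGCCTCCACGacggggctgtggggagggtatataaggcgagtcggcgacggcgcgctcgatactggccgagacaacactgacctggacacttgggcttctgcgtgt
A match of letters is a description, and no binding was measured. The share counts all tested members of the list with a window, moved or not. It therefore describes the list and not the response to WZB117. The same holds for the motif shares of the lists below.

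Targets of Nrf2, the factor that turns on antioxidant and NADPH-producing enzymes, rose in 20 of 25 tested members, and 5 did not pass (Gsta1, Taldo1, Tkt, Prdx1 and Gsta4). The median log2 change was 0.34, with 0.49, 0.33 and 0.26 by passage. Gclm, a subunit of the enzyme that makes the glutathione precursor, was at 72.7, 72.7 and 65.7 CPM with DMSO and 120.4, 125 and 99.4 CPM at 10 µM, without overlap, a log2 change of 0.70 ± 0.06 (SE, adjusted p = 8.12e-09). Srxn1, which repairs oxidised peroxiredoxins, was at 97.9, 76.3 and 78.5 CPM with DMSO and 195, 131 and 131 CPM at 10 µM (log2 change 0.84 ± 0.08 SE, adjusted p = 9.31e-08). The autophagy receptor Sqstm1 changed by 0.60 and Pgd, an NADPH-producing enzyme of the pentose phosphate pathway, by 0.61. Hmox1, the heme-degrading oxygenase, was at 115, 93.6 and 131 CPM with DMSO and 331, 231 and 247 CPM at 10 µM, the largest change of the list at 1.25 ± 0.10 (SE, adjusted p = 1.12e-05). Without the passage term 5 of the 25 passed, and leaving out 1 library or passage left 15 to 22.

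The amino acid and integrated stress response list was divided: 18 of 31 tested members rose, Slc1a5 fell and 12 did not pass, with a median log2 change of 0.32 and medians of 0.51, 0.35 and 0.07 by passage. Ppp1r15a, the phosphatase subunit that ends the response, was at 38.1, 49.8 and 40.4 CPM with DMSO and 95.4, 96.9 and 70.4 CPM at 10 µM, a log2 change of 1.03 ± 0.08 (SE, adjusted p = 2.60e-09). Ddit4, an inhibitor of mTORC1, was at 56.7, 44.3 and 83.5 CPM with DMSO and 114, 81.6 and 136 CPM at 10 µM. It was higher in each passage, with overlap between the groups, passage 18 being the highest in both (log2 change 0.87 ± 0.07 SE, adjusted p = 5.12e-09). The transcription factor Cebpb changed by 0.90, and the glutamine carrier Slc1a5 fell by 0.44 on the log2 scale, being at 115, 135 and 122 CPM with DMSO and 89.6, 103 and 82.9 CPM at 10 µM, without overlap. Several typical Atf4 targets were among those that did not pass: Trib3, Chac1, Psat1 and Phgdh. Without the passage term 2 members passed, and without passage 12, or without either of its libraries, 12 rose. The sequence TGATGNAA, a core of the Atf4 element searched on both strands, lay in 33.3% of the 27 members with a window. It lay in 4.51% of all genes with one. The window of Slc7a11 (chr3:50443564-50443863, minus strand), the cystine carrier that is in this list and in the Nrf2 list (log2 change 1.25), is shown since it holds the sequence at 2 places, in capitals:
Slc7a11: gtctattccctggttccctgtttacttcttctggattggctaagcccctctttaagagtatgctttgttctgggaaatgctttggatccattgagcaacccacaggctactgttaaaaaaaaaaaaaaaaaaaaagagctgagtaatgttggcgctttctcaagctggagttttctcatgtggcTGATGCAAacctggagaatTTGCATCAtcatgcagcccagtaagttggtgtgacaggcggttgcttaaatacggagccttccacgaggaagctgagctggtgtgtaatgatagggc
No binding was measured here either, and the share describes the list, not the response.

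Immediate early genes, which cells transcribe within minutes of a stimulus, rose in 17 of 29 tested members. Arc and Dusp4 fell and 10 did not pass (Egr1, Fosb and Myc among them). The median log2 change of the list was 0.39, with 0.57, 0.30 and 0.33 by passage. Maff, a small Maf transcription factor, was at 19.3, 33.0 and 17.3 CPM with DMSO and 50.8, 61.5 and 37.6 CPM at 10 µM, without overlap, a log2 change of 1.13 ± 0.08 (SE, adjusted p = 3.08e-10). Nr4a1, an orphan nuclear receptor, was at 8.64, 5.85 and 13.1 CPM with DMSO and 25.5, 13.1 and 32.0 CPM at 10 µM. It rose in each passage from different starting levels, and the groups overlapped (log2 change 1.35 ± 0.12 SE, adjusted p = 1.58e-08). Klf4, a transcription factor that limits endothelial inflammation, changed by 0.77, the MAP kinase phosphatase Dusp1 by 0.79 and the growth suppressor Btg2 by 0.88. Without the passage term 3 members passed, and with any library or passage left out 1 member fell.

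Genes of glucose uptake and glycolysis rose in 16 of 26 tested members with a median log2 change of 0.51 (0.68, 0.41 and 0.40 by passage), and 10 did not pass. Of these 26, 13 are also on the hypoxia list. Of the 13 that are not, 6 rose. Slc2a1 itself, the transporter that WZB117 inhibits, was at 70.8, 99.6 and 83.7 CPM with DMSO and 369, 323 and 267 CPM at 10 µM, without overlap, a log2 change of 1.93 ± 0.19 (SE, adjusted p = 0.0029). The related transporter gene Slc2a3 had a log2 difference of -0.40 (adjusted p = 0.196) and did not pass. Among enzymes, Hk2, the inducible hexokinase, was at 54.2, 37.1 and 22.7 CPM with DMSO and 145, 93.8 and 51.7 CPM at 10 µM, higher in each passage although the groups overlapped, a log2 change of 1.32 ± 0.07 (SE, adjusted p = 3.19e-13). Hk1, the constitutive hexokinase, was at 247, 293 and 273 CPM with DMSO and 479, 438 and 433 CPM at 10 µM (log2 change 0.74 ± 0.07 SE, adjusted p = 4.78e-08), and Ldha, which makes lactate from pyruvate, changed by 0.70. Without the passage term 7 members passed. Over 54 hypoxia targets with a window, ACGTG, a form of the core bound by hypoxia-inducible factors and searched on both strands, lay in 68.5%. Over all genes with a window the share was 21.8%. Over the tested genes with a window (68.7% of those tested) it was 29.05%. The other form, GCGTG, lay in 70.4% of these hypoxia targets, 35.2% of all genes with a window and 54.7% of the tested ones. The window of Hk2 (chr6:82774405-82774704, minus strand), a gene of both lists, is shown since it holds ACGTG at 2 places, in capitals:
Hk2: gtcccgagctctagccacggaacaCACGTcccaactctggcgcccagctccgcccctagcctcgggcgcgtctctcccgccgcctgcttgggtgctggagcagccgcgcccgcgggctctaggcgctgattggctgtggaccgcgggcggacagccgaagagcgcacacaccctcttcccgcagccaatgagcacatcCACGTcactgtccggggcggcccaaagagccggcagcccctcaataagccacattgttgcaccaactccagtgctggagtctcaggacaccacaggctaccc
The window of Eno2 held no ACGTG, which says only that these letters are not in it. Slc2a1 no longer passed without passage 18 (adjusted p = 0.0723), with a span of 1.28e-21 to 0.0723 over all alternatives.

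Glycogen metabolism showed rises in 7 of 18 tested members and no falls past the test, with 6 calls left without the passage term. Outside the hypoxia list 4 of 14 rose. Gbe1, the glycogen branching enzyme, was at 15.4, 17.5 and 17.4 CPM with DMSO and 55.3, 49.3 and 45.1 CPM at 10 µM, without overlap, a log2 change of 1.57 ± 0.09 (SE, adjusted p = 2.52e-11). Pgm1, which links glucose 1-phosphate and glucose 6-phosphate, changed by 1.46, and Epm2a, the glycogen phosphatase laforin, by 1.22. Of 69 nuclear genes of oxidative phosphorylation 1 passed, Ndufv3 (log2 change 0.57), and 0 did without the passage term. Of 33 genes of pyruvate dehydrogenase and the TCA cycle 3 were higher, or 1 without the passage term. That share of 9.09% is about the 9.23% over all genes tested. The 3 were the pyruvate dehydrogenase kinases Pdk1 (1.43) and Pdk3 (0.60), which inhibit entry of pyruvate into the cycle, and pyruvate carboxylase Pcx (0.33). Of 41 genes of the mitochondrial ribosome, import and dynamics, 6 fell and 1 rose, the protease gene Lonp1 (log2 change 0.56), with a median log2 change of -0.13 and 35 members below 0. The falls numbered 0 without the passage term, 1 without passage 12, 2 without passage 18 or without DMSO of passage 12 or 18, 3 without 10 µM of passage 12 or 18, and 9 without 10 µM of passage 14. In the mitophagy, autophagy and lysosome list 13 of 31 rose and 0 fell, 11 of 29 outside the hypoxia list, with a median log2 change of 0.15. The rises numbered 3 without the passage term, 6 without passage 12, 7 without DMSO of passage 12, 8 without DMSO of passage 18 and 5 without 10 µM of passage 12. Atg12, which takes part in forming the autophagosome, changed by 0.49. Of 77 ribosomal protein genes 1 passed, Rpl12, which fell by 0.48 on the log2 scale. Pdk1 no longer passed without passage 18 (adjusted p = 0.156), with a span of 1.12e-14 to 0.156 over all alternatives.

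Of 26 JmjC demethylases and other 2-oxoglutarate dioxygenases, a class that needs oxygen and a TCA cycle metabolite, 12 rose and 2 fell (Riox1 and Riox2), with a median of 0.29. Outside the hypoxia list the counts were 8 and 2 of 21. The histone H3K4 demethylase Kdm5b was at 36.4, 24.6 and 36.2 CPM with DMSO and 80.2, 48.4 and 67.9 CPM at 10 µM, without overlap, a log2 change of 1.01 ± 0.08 (SE, adjusted p = 4.11e-10). The H3K9 demethylase Kdm4b changed by 1.08, the RNA demethylase Alkbh5 by 0.77 and Jmjd6 by 0.59. Without the passage term 3 members passed. In the circadian list 7 of 17 rose and Dbp fell, with a median log2 change of 0.14 (0.13, -0.05 and 0.38 by passage), and the counts were 2 and 0 without the passage term. Outside the hypoxia list the counts were 4 and 1 of 14. The nuclear receptor Rora was at 7.05, 5.11 and 6.78 CPM with DMSO and 28.9, 16.6 and 20.7 CPM at 10 µM, without overlap (log2 change 1.79 ± 0.11 SE, adjusted p = 1.31e-11), and the repressors Bhlhe40 and Nfil3 changed by 1.07 and 1.07.

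Genes of cell division fell together. Of 40 tested members of the mitosis list 39 fell, Bub1 (log2 difference -0.15) being the exception, with a median log2 change of -0.53 (-0.59, -0.39 and -0.59 by passage). Cenpf (ENSMUSG00000026605, chr1:189640606-189688086, minus strand) was at 111, 119 and 75.1 CPM with DMSO and 54.9, 69.1 and 43.8 CPM at 10 µM, a log2 change of -0.86 ± 0.06 (SE, adjusted p = 3.08e-10). Bub1b, a spindle checkpoint kinase, was at 131, 118 and 96.3 CPM with DMSO and 69.0, 72.9 and 55.2 CPM at 10 µM (log2 change -0.81 ± 0.06 SE, adjusted p = 9.19e-10). In both, DMSO of passage 18 was the lowest of its group and still above all libraries at 10 µM. The kinetochore motor Cenpe and the anaphase activator Cdc20 changed by -0.73 and -0.68. The list summed to 3390 to 4640 CPM with DMSO and to 2281 to 3481 CPM at 10 µM, which overlap. Of the members, 0 passed in edgeR without the passage term (26 at an unadjusted p below 0.05). In bulk RNA, fewer dividing cells and less of these transcripts per dividing cell cannot be told apart. The promoter element TTTGAA (a form of the cell cycle homology region, both strands) lay in 71.4% of the 35 members with a window. Of all genes with one, 20.2% held it. As above, that share is set by the choice of list and not by the treatment. The window of Cenpf (chr1:189688037-189688336, minus strand) is shown as the member named above, with its only match in capitals:
Cenpf: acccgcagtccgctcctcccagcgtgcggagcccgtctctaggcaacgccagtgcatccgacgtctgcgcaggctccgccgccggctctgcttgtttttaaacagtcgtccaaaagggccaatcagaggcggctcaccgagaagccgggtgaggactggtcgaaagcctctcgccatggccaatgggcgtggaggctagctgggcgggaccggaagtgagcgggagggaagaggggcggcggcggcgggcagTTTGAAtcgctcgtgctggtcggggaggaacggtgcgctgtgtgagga
Among inhibitors of cyclin-dependent kinases, Cdkn1a is described above, and Cdkn1b (p27) was at 62.5, 64.6 and 66.4 CPM with DMSO and 100.3, 83.2 and 97.5 CPM at 10 µM, without overlap (log2 change 0.53 ± 0.07 SE, adjusted p = 1.25e-06). Ccnd1, the cyclin that drives cells out of G1, was at 696, 1005 and 802 CPM with DMSO and 479.6, 885 and 491 CPM at 10 µM, lower in each passage with overlapping groups (log2 change -0.47 ± 0.08 SE, adjusted p = 0.000249). Of 21 p53 targets 9 rose, Cdkn1a, Btg2 and the death receptor Tnfrsf10b (log2 change 0.72) among them, and 2 fell (Fas and Aen). Without the passage term 2 of the p53 targets rose and 0 fell.

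Ribosome production showed a similar picture. Of 39 genes of ribosome biogenesis and RNA polymerase I, 27 fell and 12 did not pass, with a median log2 change of -0.35 (-0.34, -0.21 and -0.53 by passage). Nop56, a core protein of box C/D small nucleolar particles, was at 200.1, 209 and 167 CPM with DMSO and 118, 155 and 95.2 CPM at 10 µM, without overlap, a log2 change of -0.67 ± 0.07 (SE, adjusted p = 1.13e-07). Polr1b, a core subunit of RNA polymerase I, was at 33.0, 30.8 and 24.2 CPM with DMSO and 18.5, 22.6 and 13.3 CPM at 10 µM (log2 change -0.71 ± 0.08 SE, adjusted p = 6.18e-07). Rrp1b and Rrs1, both nucleolar processing factors, changed by -0.66 and -0.67. Nucleotide synthesis followed with 12 of 28 lower and 2 higher. Ppat, the first enzyme of purine synthesis, was at 71.6, 65.3 and 59.0 CPM with DMSO and 45.4, 50.0 and 33.6 CPM at 10 µM (log2 change -0.62 ± 0.07 SE, adjusted p = 6.80e-07), and the purine enzymes Pfas and Gart changed by -0.40 and -0.42. Without passage 12 none of the nucleotide genes was higher. In edgeR without the passage term 0 members of either list passed, with 14 and 3 at an unadjusted p below 0.05.

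DNA replication genes depended on 1 passage. Of 49 tested members 13 fell, with a list median of -0.18, but the medians were -0.03, -0.09 and -0.44 at passages 12, 14 and 18. Without passage 18, 1 member fell and 2 rose; without only DMSO of passage 18, 2 fell, and without only 10 µM of passage 18, 4 fell and 2 rose. Without DMSO of passage 12, 7 fell. The thymidylate synthase Tyms illustrates it, at 99.8, 93.3 and 79.3 CPM with DMSO and 84.3, 83.2 and 58.0 CPM at 10 µM (log2 change -0.29 ± 0.06 SE, adjusted p = 0.00198): the difference was widest at passage 18. The replication histones were lower in 58 of 63 tested members (median log2 change -1.28). These genes are near-identical copies whose reads the counting can split, so single members are uncertain. Their sum was 4474 to 5911 CPM with DMSO and 2014 to 2652 CPM at 10 µM, without overlap. The histone count fell to 16 without passage 14, and to 34, 31, 28 and 32 without DMSO of passage 12, 14 or 18 or without 10 µM of passage 14. Tyms no longer passed without passage 18 (adjusted p = 0.0703) or without DMSO of passage 18 (adjusted p = 0.0609), with a span of 0.000537 to 0.68 over all alternatives.

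**Figure D4:**
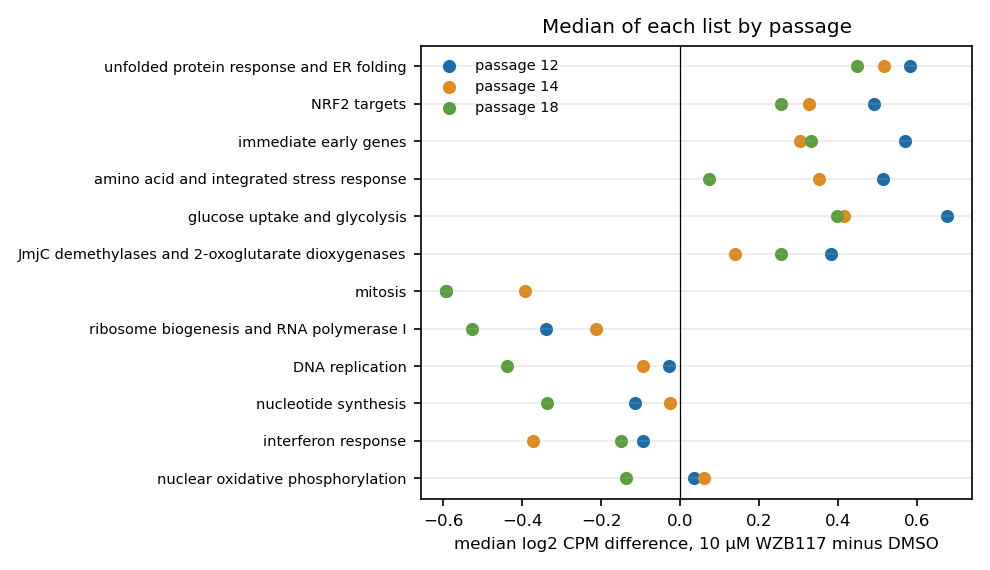
Median log2 CPM difference between 10 µM WZB117 and DMSO in each passage (colours) over the tested members of 12 lists. ER folding is at 0.45 to 0.58 in the 3 passages and mitosis at -0.39 to -0.59, while DNA replication is near 0 at passages 12 and 14 and at -0.44 at passage 18.

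Interferon response genes were lower in 12 of 29 tested members, with Stat2 higher, a list median of -0.22 (-0.09, -0.37 and -0.15 by passage). Ifit2, an antiviral RNA-binding protein, was at 102, 35.6 and 57.9 CPM with DMSO and 61.1, 24.5 and 35.3 CPM at 10 µM. It differed more among the DMSO libraries than between treatments within a passage, and the groups overlapped (log2 change -0.67 ± 0.07 SE, adjusted p = 1.38e-07). Ifit3, Irgm1 and Ifit1 changed by -0.52, -0.37 and -0.41. The count was sensitive to single libraries: 5 fell without passage 14 or without its DMSO library, 7 without DMSO of passage 12, 7 without 10 µM of passage 14 and 7 without 10 µM of passage 18, and 0 passed in edgeR without the passage term (0 at an unadjusted p below 0.05). The inflammatory list of activated endothelium went both ways, with 6 of 24 higher and 6 lower. Vcam1, the adhesion molecule for leukocytes, was at 46.4, 24.9 and 33.2 CPM with DMSO and 23.8, 15.1 and 16.8 CPM at 10 µM, without overlap, a log2 change of -0.89 ± 0.08 (SE, adjusted p = 1.16e-08), while Ptgs2, the inducible cyclooxygenase, was at 179, 249 and 129 CPM with DMSO and 319, 396 and 180.1 CPM at 10 µM (log2 change 0.67 ± 0.08 SE, adjusted p = 3.43e-06), higher in each passage. Without passage 12, 2 members were lower, and without the passage term 0 were higher and 0 lower.

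Notch genes, the subject of the study's question, moved in both directions. Of 28 tested receptors, ligands and processing genes, 7 rose (25%) and 2 fell (7.14%), with a median of 0.08. The shares over all genes tested were 9.23% and 9.29%. Without the passage term 1 rose and 1 fell. The count of rises was 3 without passage 12, 3 without passage 18 and 4 without DMSO of passage 18. The ligand Jag1 was at 156, 136 and 128 CPM with DMSO and 111, 105 and 108 CPM at 10 µM, all libraries at 10 µM lying below all with DMSO, a log2 change of -0.37 ± 0.06 (SE, adjusted p = 0.000149). Lfng, the glycosyltransferase that tunes ligand choice, was at 30.2, 29.7 and 26.8 CPM with DMSO and 19.8, 20.2 and 17.8 CPM at 10 µM (log2 change -0.58 ± 0.08 SE, adjusted p = 2.78e-06), also without overlap, and Numbl, a relative of the Notch inhibitor Numb, changed by 0.70. The receptors Notch1 and Notch4 and the ligand Dll4 did not pass, with log2 differences of 0.06 (adjusted p = 0.676), -0.09 (0.532) and 0.16 (0.279). Of 15 tested targets, 4 rose (26.7%, Cdkn1a among them) and 2 fell (13.3%), with a median of 0.02. Without the passage term 1 rose and 0 fell. Hes1, a canonical target, was at 35.5, 29.7 and 44.8 CPM with DMSO and 40.6, 37.4 and 53.6 CPM at 10 µM, higher in each passage with overlap (log2 change 0.26 ± 0.07 SE, adjusted p = 0.00992). Nrarp, a feedback inhibitor, was at 40.3, 75.6 and 62.2 CPM with DMSO and 59.5, 86.2 and 86.2 CPM at 10 µM (log2 change 0.41 ± 0.09 SE, adjusted p = 0.00412). Hey1 was low, at 1.09, 1.26 and 0.411 CPM with DMSO and 0.682, 0.493 and 0.161 CPM at 10 µM, and its log2 difference of -1.10 did not pass (adjusted p = 0.0618). Hes1 no longer passed without passage 14 (adjusted p = 0.0656), without passage 18 (adjusted p = 0.0585), without DMSO of passage 18 (adjusted p = 0.0721) or without 10 µM of passage 14 (adjusted p = 0.0794), with a span of 0.00387 to 0.792 over all alternatives. Nrarp no longer passed without passage 12 (adjusted p = 0.133) or without 10 µM of passage 12 (adjusted p = 0.0518), with a span of 8.71e-08 to 0.699 over all alternatives.

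Of 30 insulin and IGF signalling genes, 9 rose (30%), 1 fell (Irs1, 3.33%) and 20 did not pass (median 0.02). Over all genes tested 9.23% rose and 9.29% fell. Without the passage term 1 member rose and 0 fell. The count of rises was 4 without passage 12, 4 without its 10 µM library and 5 without its DMSO library. Foxo3, the transcription factor held in check by insulin signalling, was at 53.2, 51.7 and 47.6 CPM with DMSO and 117, 77.2 and 80.2 CPM at 10 µM, without overlap, a log2 change of 0.83 ± 0.09 (SE, adjusted p = 6.46e-06). The insulin receptor Insr was at 47.0, 58.9 and 66.8 CPM with DMSO and 61.3, 60.0 and 80.8 CPM at 10 µM (log2 change 0.23 ± 0.07 SE, adjusted p = 0.0255), nearly level at passage 14. Endothelial identity genes moved in both directions by small amounts, 6 of 27 higher and 4 lower. Without the passage term 0 were higher and 0 lower. Rises numbered 2 without passage 12, its DMSO library or its 10 µM library, and 3 without DMSO of passage 18. The sphingosine 1-phosphate receptor S1pr1 changed by 0.52, the VEGF receptors Kdr and Flt1 by -0.34 and 0.30. Pecam1 and Cdh5 did not pass (0.16, adjusted p = 0.0538, and 0.11, adjusted p = 0.261). The growth factor Vegfa itself, a hypoxia target, was at 27.8, 36.0 and 34.0 CPM with DMSO and 77.0, 83.8 and 74.1 CPM at 10 µM, without overlap (log2 change 1.27 ± 0.07 SE, adjusted p = 2.09e-12). Txnip, which many cells raise when glucose is plentiful, had a log2 difference of 0.11 (adjusted p = 0.277). Insr no longer passed without passage 12 (adjusted p = 0.208), without passage 18 (adjusted p = 0.167), without DMSO of passage 12 (adjusted p = 0.15), without DMSO of passage 18 (adjusted p = 0.165), without 10 µM of passage 12 (adjusted p = 0.298) or without 10 µM of passage 18 (adjusted p = 0.0721), with a span of 0.00237 to 0.79 over all alternatives.

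The same genes were near DMSO levels at the lower dose. Eno2 was at 5.72, 5.21 and 5.27 CPM at 0.5 µM, Cdkn1a at 11.3, 11.9 and 16.9 CPM at 0.5 µM, Hspa5 at 928, 939 and 990.2 CPM at 0.5 µM and Cenpf at 108, 119.9 and 75.5 CPM at 0.5 µM, each within or close to the range of its DMSO values. In the same fit, 2759 genes (17.8%) differed between 10 and 0.5 µM, 1436 higher (9.28%) and 1323 lower (8.55%) at 10 µM. Between 0.5 µM and DMSO, edgeR called 0 genes (0%), with 219 at an unadjusted p below 0.05, and DESeq2 called 44. These comparisons share libraries with the one at 10 µM and are not separate evidence. A p that misses the threshold does not show that 0.5 µM left a gene unchanged.

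**Figure D5:**
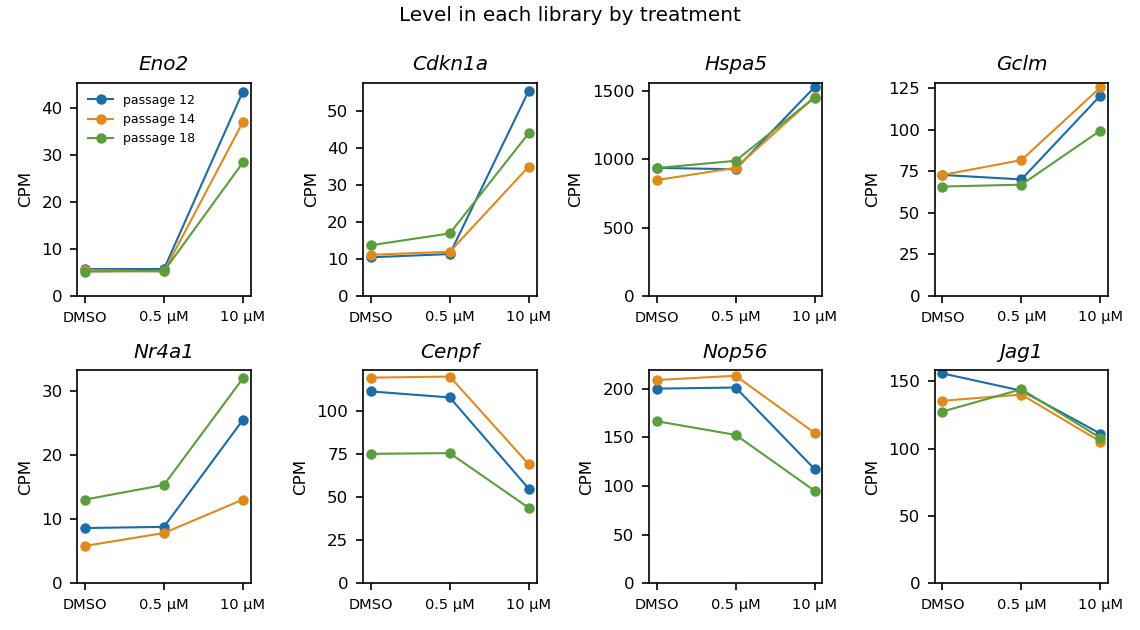
CPM (vertical axes, from 0) of 8 genes in each of the 9 libraries by treatment, with lines joining libraries of 1 passage. Eno2, Cdkn1a, Hspa5, Gclm and Nr4a1 are higher and Cenpf, Nop56 and Jag1 lower at 10 µM than at the other treatments in each passage.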

How the data were processed

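RNA of 9 cEND libraries (passages 12, 14 and 18 of 3 treatments) was analysed from 1 table of expected counts per Ensembl gene that the authors deposited, unscaled; 19.8% of the values were not whole and were rounded. The labels name build GRCm38; the aligner, counting program and annotation release are not given in the sources used here. Of 44674 genes, 44118 matched a symbol in GENCODE M21 (rows without one held at most 0.141% of counts), 18647 were at 0 in every library and 15466 passed filterByExpr. No column was left out, and no pair of replicates agreed within sampling noise (lowest chi-square per degree of freedom 41.9).

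Counts were fitted with edgeR 4.0.16 in R 4.3.3 (TMM, robust quasi-likelihood, group and passage as terms, 4 residual degrees of freedom, 2-sided). The method was also run on counts simulated with known changes, using the spread and passage levels fitted to these libraries. Because of that, the simulation cannot show whether the calls made only with the passage term are right. CPM used TMM library sizes, within-passage log2 differences a prior count of 0.5, and FPKM the exon length. Passage pairs the libraries by the labels, and deviations of DMSO and 10 µM libraries of a passage from their group means correlated at 0.446, 0.327 and 0.455.

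The members and lists were chosen with earlier results of these data known. Genes named with values were the 15 per direction, average log2 CPM of at least 1, ranked by the smallest within-passage change outside the hypoxia and histone lists, up to 4 members per list by p, and a fixed set (Slc2a1, Hk2, Ldha, Notch and insulin genes, Vegfa and the like). Genes named beyond these, to spell out a small count or to show what did not pass, were chosen after their values were seen. Promoter windows came from RefSeq (GRCm38.p6), picked after motif counts were known. Alternatives were no passage term, DESeq2 1.42.0, other scalings and filters, the 6 libraries alone, and leaving out each library or passage; list counts under them were added after seeing the data.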

Additional observations from a re-analysis of the deposited data

How the results depend on the processing

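The call depended most on pairing by passage. Without the replicate block 197 genes passed at 10 µM against DMSO in place of 2864, the same number moved in all 3 passages, and 197 passed at 10 against 0.5 µM in place of 2759. Of 214 genes followed, 151 lost their call that way and none changed sign. Leaving out a library or passage gave 1628 to 2857 genes at 10 µM against DMSO, 1623 to 2848 of them moving in all remaining passages, and 1493 to 2709 at 10 against 0.5 µM, the low ends being without passage 12. In these settings Notch1, which did not pass, ran from -0.017 to 0.17 on the log2 scale and Notch4 from -0.21 to 0.057, so the sign of neither was the same throughout. Upper-quartile or RLE scaling, DESeq2, other filters and a fit of the 6 libraries alone kept both counts at 10 µM within 1.5 times. For 0.5 µM against DMSO the count of 0 became 3 in the 6 libraries alone, 44 with DESeq2, 6 without a filter and 0 to 8 with a library or passage left out. The cause of these differences between settings was not tested. With 4 residual degrees of freedom and 1 library per passage and dose, small changes of low genes can be missed. No detection limit was computed for them.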

Other observations

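Several smaller lists moved at 10 µM WZB117 against DMSO in edgeR's quasi-likelihood test. In the hexosamine pathway, which makes the sugar donors of glycosylation, 6 of 12 tested genes were higher, or 0 without the passage term (5 at an unadjusted p under 0.05; DESeq2, with the passage term, also called 6). Gfpt1, its rate-limiting enzyme, was at 63.5, 62.0 and 52.1 CPM with DMSO and 118, 81.5 and 89.2 CPM at 10 µM, without overlap (log2 change 0.69, adjusted p = 3.48e-05), and Uap1, which makes UDP-GlcNAc, changed by 0.53. Of 20 enzymes that modify collagen, 8 were higher, 5 of them among the 16 outside the hypoxia list. The count was 3 without the passage term and 5 without DMSO of passage 12 or of passage 14. The lysyl hydroxylase Plod2 was at 49.3, 57.4 and 49.7 CPM with DMSO and 199, 165 and 171 CPM at 10 µM, without overlap (log2 change 1.78, adjusted p = 1.84e-06). In the one-carbon list, Mthfd1l, the mitochondrial formate-producing enzyme, was at 116, 132 and 130.1 CPM with DMSO and 218, 226 and 216 CPM at 10 µM, without overlap (log2 change 0.80, adjusted p = 6.79e-10). Its cytosolic counterpart Mthfd1 was lower, at 117, 119.8 and 96.3 CPM with DMSO and 99.2, 106 and 64.2 CPM at 10 µM, with overlap (log2 change -0.33, adjusted p = 0.00172).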
